A study of Mus musculus with 2 samples.

Results

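The genes described here are 10 genes by which macrophages take up, store and export lipid, chosen by symbol and matched through the platform's gene table to probe sets with 1 gene symbol. All 10 were found among 22180 named genes. They are the uptake genes Cd36, Msr1 and Lpl, the storage and carrier genes Fabp4 and Plin2, the efflux genes Abca1, Abcg1 and Apoe, and the nuclear receptor genes Pparg and Nr1h3. Lpl had 2 probe sets and each other gene had 1.

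A macrophage takes in modified lipoproteins through scavenger receptors and fatty acids set free by lipoprotein lipase, and it keeps surplus fatty acids and cholesterol as esters in lipid droplets. It returns cholesterol to lipoproteins through ABC transporters and apolipoprotein E. The receptor PPAR gamma senses fatty acids and the liver X receptors sense oxysterols, and both raise the transcription of many of these genes. A macrophage whose uptake exceeds its export becomes the foam cell of the arterial plaque.

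The mRNA was measured on 2 Affymetrix arrays, 1 of RAW264.7 cells with the genotype HuR-deficient and 1 of wildtype RAW264.7 cells. RAW264.7 is an established mouse macrophage line, and HuR, the product of Elavl1, is an RNA-binding protein that recognises AU-rich elements and protects many messages from decay. Both cultures grew in DMEM with 10% FBS and were transfected with high molecular weight poly(I:C), a double-stranded RNA that mimics viral RNA, carried by lipofectamine 2000, a lipid reagent, for 8 hours. The labels give the poly(I:C) as 1 mg/ml. Both therefore also received lipid with the stimulus, and no culture without it was analysed here, so the values do not show a response to poly(I:C) or to the reagent. The sources used here do not say how HuR was removed or whether the cells labelled HuR-deficient are 1 clone.

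There was 1 array per group and no replicate, so no difference below has an error between cultures or a test. Every value is a log2 RMA signal, every difference is the array labelled HuR-deficient minus the wildtype array, and signals of different genes are not comparable, since each probe set binds with its own strength. In place of a replicate error, each difference is set beside the 500 genes closest to it in mean signal, here called its neighbours in signal. A second yardstick came from 461 genes with 2 probe sets that each reached, on at least 1 array, a floor of 4.38, the median of all named signals: their 2 differences lay a median of 0.25 apart and had the same sign in 64.9% of genes. A signal below that floor was not shown to lie above background.

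Elavl1 had a signal of 7.75 on the array labelled HuR-deficient and 7.68 on the wildtype array, a difference of 0.07, so its probe set does not separate the arrays and does not check the label. All 10 macrophage markers examined reached the floor, among them Csf1r, Cd68, Cd14 and Lyz2, and their signals lay between 4.53 and 12.48 on the array labelled HuR-deficient and between 4.86 and 12.34 on the wildtype array. Of these markers 7 had a difference below 0 and 3 above, with a median of -0.09, and they ran from Cebpb at -0.68 to Adgre1, which encodes F4/80, at 1.57. Fabp4, Pparg, Lpl and Cd36 are also genes of adipocytes. None of the 6 measured adipocyte markers reached the floor: their signals lay between 2.53 and 4.38 on the array labelled HuR-deficient, where Plin1 was the highest at just under the floor, and between 2.79 and 4.35 on the wildtype array. Adipoq, which encodes adiponectin, was the lowest of them on the array labelled HuR-deficient at 2.53, against 2.79 on the wildtype array. Of 9 measured markers of T, B, endothelial, fibroblast and epithelial cells, 5 reached the floor, and the 9 had signals between 3.51 and 4.92 on the array labelled HuR-deficient and between 3.01 and 5.39 on the wildtype array.

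Across the 10 genes, the storage and carrier genes Fabp4 and Plin2 showed the largest differences, both lower on the array labelled HuR-deficient, and the efflux gene Abca1 came next. Fabp4 and Abca1 had signals below the floor on that array, and with low signals raised to the floor their differences were -0.19 and -0.18, behind Plin2 (-0.69), Lpl (-0.29) and Msr1 (-0.27). The uptake genes differed by 1.22-fold or less on their stronger probe sets. Abcg1 and Apoe were the genes on the other side of 0. No gene of the 10 reached 2-fold in either direction, where 1.88% of all named genes did. Fabp4 came just past 2-fold, at -1.0004, when a loess trend of difference on signal was removed. Fewer cells that carry a message and less of it per cell cannot be told apart in such bulk RNA.

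**Figure D1:**
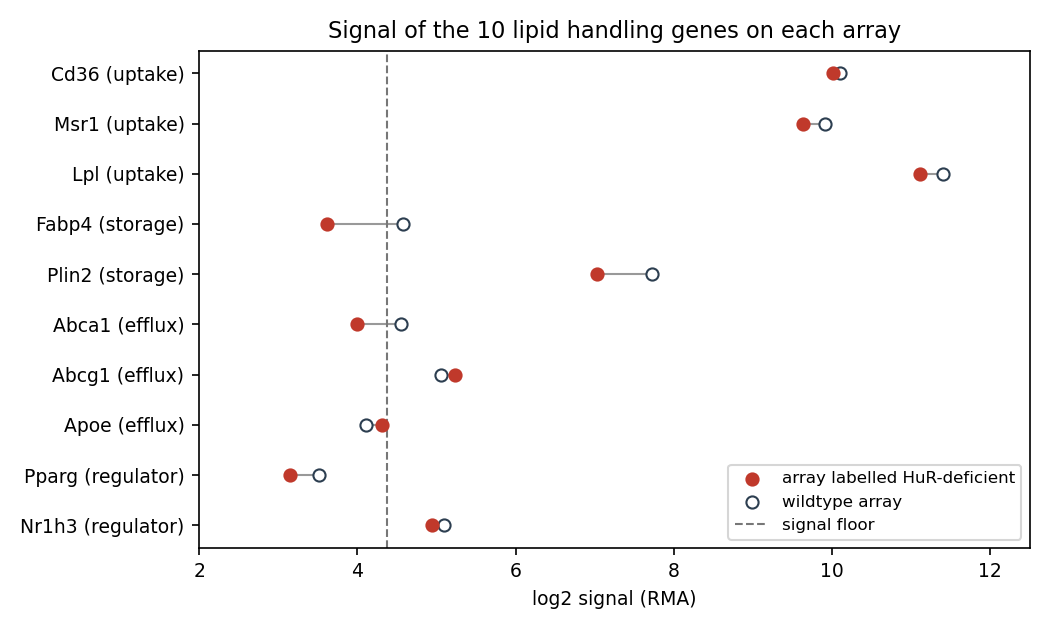
Log2 RMA signal of the 10 genes, 1 array per group (filled points: array labelled HuR-deficient; open points: wildtype array; dashed line: the floor of 4.38). For Lpl the stronger probe set is drawn. Fabp4 and Abca1 cross the floor between the arrays, Pparg and Apoe stay under it on both, and 8 of the 10 filled points lie left of their open partner.

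The uptake genes gave strong signals on both arrays. Cd36 encodes a scavenger receptor and fatty acid translocase for oxidised low-density lipoprotein and long-chain fatty acids. Its signal was 10.01 on the array labelled HuR-deficient and 10.10 on the wildtype array, a difference of -0.09, and 68.4% of its 500 neighbours in signal showed a difference of that size or more. It was the smallest difference of the 10.

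Msr1 encodes scavenger receptor A, which takes up acetylated and oxidised lipoproteins. Its signal was 9.64 on the array labelled HuR-deficient and 9.91 on the wildtype array, a difference of -0.27. That size was reached or passed by 28.2% of its 500 neighbours in signal, so the value lies well within what genes of that signal showed.

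Lpl encodes lipoprotein lipase, the secreted enzyme that frees fatty acids from triglyceride-rich lipoproteins. Its stronger probe set read 11.11 on the array labelled HuR-deficient and 11.40 on the wildtype array, a difference of -0.29. The weaker one read 9.85 on the array labelled HuR-deficient and 10.27 on the wildtype array, a difference of -0.42. Both probe sets were lower, 0.13 apart. The median gap was 0.25 among genes with 2 probe sets, but those genes were not matched to Lpl in signal. Genes of such high signal varied little, with a robust SD of 0.19 among the nearest 500, and 19.0% of these reached the difference of the stronger probe set. The 2 probe sets read the same 2 RNA samples and are no replicates of the cultures.

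The carrier and storage genes had the most negative differences as measured. Fabp4 encodes the fatty acid binding protein aP2, which carries fatty acids in the cytosol of macrophages and adipocytes and is a known PPAR gamma target. Its signal was 3.62 on the array labelled HuR-deficient, below the floor, and 4.57 on the wildtype array, just above it. The difference was -0.96, or 1.94-fold lower, and 1% of its 500 neighbours in signal reached that size. With every signal below the floor raised to it, the difference was -0.19, so the size of the Fabp4 difference rests on a signal that was not shown to lie above background.

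Plin2 encodes perilipin 2, also called adipophilin or ADRP, which coats lipid droplets in cells other than adipocytes and whose amount follows the droplet content of macrophages. Its signal was 7.04 on the array labelled HuR-deficient and 7.73 on the wildtype array, both above the floor. The difference was -0.69, or 1.62-fold lower, and 7.2% of its neighbours reached that size, 3.8% in the same direction. It was the largest difference among the 6 genes that reached the floor on both arrays.

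Promoters were looked up for the 10 genes among RefSeq windows of 300 bases, from 250 bases before each transcript start to 50 after it, on build GRCm38.p6. The table matched 6 of the 10 genes, with 11 windows. Fabp4, Msr1, Lpl and Abcg1 were not matched. Shown are the windows of Plin2 and Abca1, which had the largest differences among the matched genes, and that of Cd36, which had the smallest. All 3 genes lie on the minus strand, and the windows are chr4:86670010-86670309, chr4:53159846-53160145 and chr5:17835847-17836146. They read 5′ to 3′ along the gene, and capitals mark the motifs found on either strand.
Plin2: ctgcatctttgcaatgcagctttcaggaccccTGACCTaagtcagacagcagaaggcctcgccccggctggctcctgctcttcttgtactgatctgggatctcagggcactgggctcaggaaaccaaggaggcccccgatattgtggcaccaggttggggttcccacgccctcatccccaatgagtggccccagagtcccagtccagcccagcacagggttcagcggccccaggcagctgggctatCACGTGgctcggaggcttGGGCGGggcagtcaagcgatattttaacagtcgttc
Abca1: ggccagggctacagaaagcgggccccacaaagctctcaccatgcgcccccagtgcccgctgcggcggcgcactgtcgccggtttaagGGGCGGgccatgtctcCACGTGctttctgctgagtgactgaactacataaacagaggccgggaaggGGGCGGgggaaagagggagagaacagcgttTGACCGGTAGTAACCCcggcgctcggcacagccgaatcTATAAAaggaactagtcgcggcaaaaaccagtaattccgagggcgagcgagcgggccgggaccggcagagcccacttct
Cd36: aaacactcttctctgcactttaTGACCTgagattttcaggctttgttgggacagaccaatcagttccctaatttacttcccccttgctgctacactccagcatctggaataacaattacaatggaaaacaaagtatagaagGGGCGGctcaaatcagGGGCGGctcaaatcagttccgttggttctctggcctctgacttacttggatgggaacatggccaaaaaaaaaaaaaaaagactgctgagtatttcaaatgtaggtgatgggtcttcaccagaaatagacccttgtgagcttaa

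The motifs searched, on both strands, were the nuclear receptor core site AGGTCA, the E-box CACGTG, the TATA box TATAAA, the GC box CCGCCC, the interferon-stimulated response element core (GAAA, any 2 bases, GAAA) and the direct repeat DR4. The DR4 is 2 copies of the core site AGGTCA, which it therefore overlaps, with any 4 bases between them, and it is the form that liver X receptors prefer. It was allowed at most 3 mismatches, and the others none. Plin2 had the core site on the opposite strand 218 bases before the start, an E-box that begins 4 bases before the start and runs across it, and a GC box 14 bases after it. Abca1 had an E-box 147 bases before the start, GC boxes at 163 and 97 bases, a TATA box at 29 bases and a DR4 with 3 mismatches that begins 67 bases before the start. Cd36 had a core site at 228 bases and GC boxes at 109 and 93 bases. No window of the 6 genes held the interferon element. Among all 32851 windows, 7.15% held the E-box, 16.3% the core site, 13.6% the TATA box, 35.7% the GC box, 3.44% the interferon element and 21.9% a DR4 with up to 3 mismatches. These are matches of letters and not measured binding.

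The efflux genes did not share a direction. Abca1 encodes the transporter that hands cholesterol and phospholipid to lipid-free apolipoprotein A-I, and it is a known liver X receptor target through a DR4 element in its promoter. Its signal was 3.99 on the array labelled HuR-deficient, below the floor, and 4.56 on the wildtype array. The difference was -0.57, or 1.48-fold lower, just short of 1.5-fold, and 10.4% of its neighbours reached that size. As with Fabp4, raising low signals to the floor left a difference of -0.18.

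Abcg1 encodes the transporter that passes cholesterol on to mature high-density lipoprotein, and it too is a known liver X receptor target. Its signal was 5.23 on the array labelled HuR-deficient and 5.05 on the wildtype array, a difference of 0.18, opposite in sign to Abca1. Among its neighbours, 56.2% showed a difference of that size or more.

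Apoe encodes apolipoprotein E, which macrophages secrete as an acceptor of cholesterol. Its signal of 4.31 on the array labelled HuR-deficient and 4.11 on the wildtype array stayed below the floor on both. The difference of 0.21 was matched or exceeded by 48.8% of the nearest genes.

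The receptor genes were weak or near the floor. Pparg encodes PPAR gamma and read 3.15 on the array labelled HuR-deficient and 3.52 on the wildtype array, a difference of -0.37, with both signals below the floor. Among its neighbours 31.0% reached that size, and the Pparg mRNA therefore cannot be ranked between the arrays from this probe set. Nr1h3 encodes liver X receptor alpha and read 4.94 on the array labelled HuR-deficient and 5.10 on the wildtype array. Its difference of -0.16 was matched or exceeded by 66.2% of the nearest genes.

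**Figure D2:**
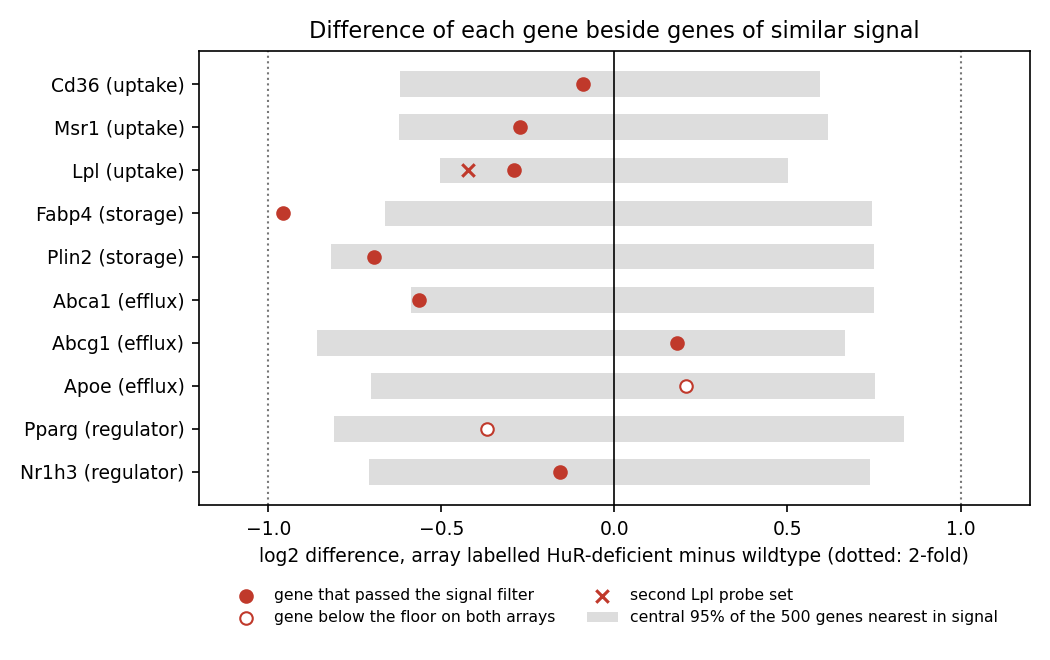
Log2 difference of the 10 genes, array labelled HuR-deficient minus wildtype array (points), over the central 95% of the 500 genes nearest in mean signal (grey bars, a spread between genes and not between replicates). Fabp4, at -0.96, lies outside its bar, which ends at -0.66, while Plin2 and Abca1 lie inside theirs near the lower end. The cross is the second Lpl probe set at -0.42.

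Over all 10 genes with no filter, 8 differences were below 0 and 2 above, with a median of -0.28. Among all 22180 named genes, 46.3% were below 0 and the median was 0.00. At 1.5-fold, 2 of the 10 were lower, Fabp4 and Plin2, and none was higher, beside 5.36% of all named genes that were lower and 5.61% that were higher. When both signals had to reach the floor, Plin2 was the 1 that remained, and with the loess correction Abca1 joined and 3 were lower. On the signal filter, which asks that the higher of the 2 signals reach the floor, 8 of the 10 passed, Fabp4 and Abca1 through the wildtype array alone. A gene that passes through 1 array is favoured to differ, so a count among the 8 carries no weight of its own. The genes were chosen with earlier results of these arrays known, and the count of 8 below 0 is only a description of these 2 arrays.

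**Figure D3:**
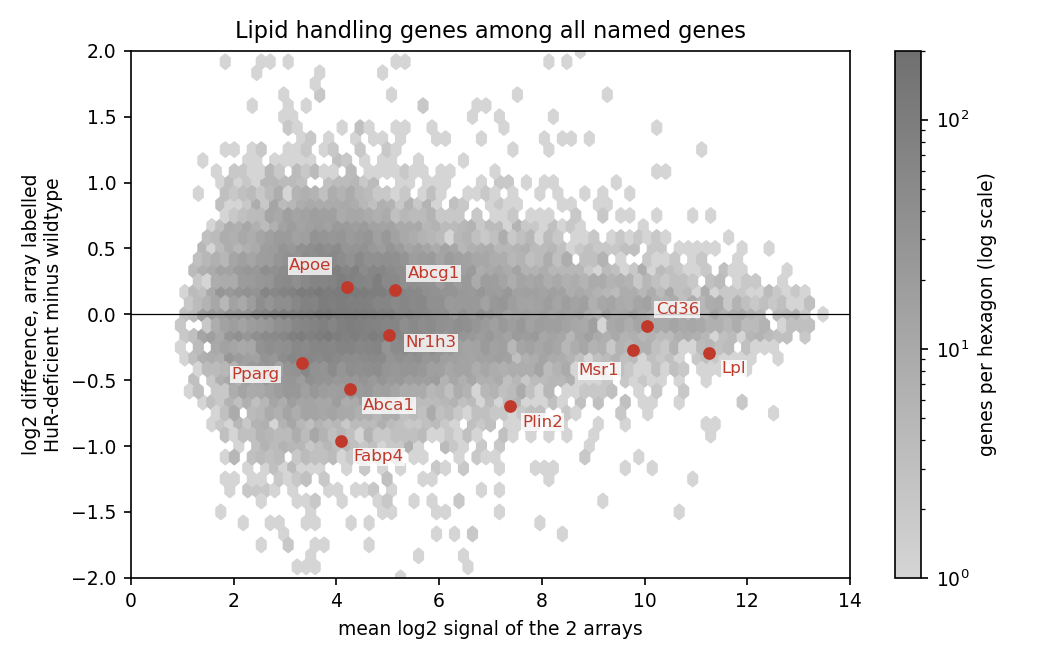
Log2 difference, array labelled HuR-deficient minus wildtype array, against the mean log2 signal of both arrays for the named genes (grey hexagons, shaded by the number of genes on a log scale) with the 10 genes in red. The axis stops at a difference of 2 either way and leaves out 29 genes. The spread narrows at high signal, where Cd36, Msr1 and Lpl lie, and Fabp4 sits at the lower rim of the cloud at low signal.

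The related genes of lipid handling were read from 9 lists of 151 symbols, of which 130 were measured and 91 passed the signal filter. As a whole they were balanced, with 63 below 0, 62 above 0, 5 identical on both arrays and a median of 0.00. Of the 91, 1 was at least 2-fold higher on the array labelled HuR-deficient and none was lower by that much, a share of 1.10%. The share over all genes that passed was 1.99%. At 1.5-fold, 2.20% were lower and 3.30% higher, and over all genes that passed 5.32% were lower and 5.44% higher.

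Among other uptake receptors the 19 measured genes had a median of 0.01, none at 2-fold lower and 1 higher. That gene was Scarf1, a scavenger receptor for acetylated lipoprotein, with 5.40 on the array labelled HuR-deficient and 4.34, under the floor, on the wildtype array, a difference of 1.06. Cxcl16, a transmembrane chemokine that is also a receptor for oxidised lipoprotein, differed by 0.35, Colec12, a collectin scavenger receptor, by -0.40, and Cd68, a lysosomal glycoprotein of macrophages, by -0.20. The partners of lipoprotein lipase had a median of 0.24 over 13 measured genes, with 3 below 0 and 9 above. They included Furin, a protease that can cleave lipoprotein lipase (0.40), Angptl8, a secreted regulator of lipase inhibition (0.37), the endothelial anchor gene Gpihbp1 (-0.21) and the lipase inhibitor gene Angptl4 (-0.24, with 4.36, under the floor, on the array labelled HuR-deficient). None of them reached 1.5-fold among the 10 that passed, and Lpl itself was lower. Pcsk6, Lipg and Apoa5 stayed below the floor on both arrays with differences above 0, and the median of the partners was the value of Pcsk6.

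Of the other fatty acid binding and activation genes, 9 of 12 were below 0, beside 46.3% of all named genes, and the median was -0.18. Fabp1 and Fabp2, which are among the 9, stayed below the floor on both arrays. All 7 that passed lay between -0.37 and -0.02. Between 25% (Acsl4) and 93.4% (Fabp7) of their neighbours in signal were at least as different, so no common lean can be read from these genes. Acsl4 and Acsl5, which attach coenzyme A to long-chain fatty acids, differed by -0.37 and -0.30. Fabp5, the epidermal fatty acid binding protein that macrophages express beside Fabp4, read 11.59 on the array labelled HuR-deficient and 11.80 on the wildtype array, a difference of -0.21, and was named after its value was seen. Fabp3 (-0.04) and Fabp7 (-0.02) were nearly level.

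The lipid droplet and triglyceride genes had no common direction: 10 of 22 were below 0 and 12 above, with a median of 0.05. Plin3, the droplet coat protein of most cells, differed by -0.51 (4.62 on the array labelled HuR-deficient, 5.13 on the wildtype array), and Dgat1, which makes triglyceride, by -0.50. On the other side were Dgat2, the second such enzyme (0.52, from a wildtype signal under the floor), and Abhd5, the coactivator of adipose triglyceride lipase. Abhd5 read 9.06 on the array labelled HuR-deficient and 8.25 on the wildtype array, a difference of 0.81, or 1.75-fold higher, which 3.6% of its neighbours matched or exceeded.

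Of the genes of cholesterol esters and lysosomal cholesterol, 6 of 10 were below 0, with a median of -0.03. Nceh1, a hydrolase of cholesterol esters in macrophages, lay lowest, with 7.52 on the array labelled HuR-deficient and 8.27 on the wildtype array, a difference of -0.75, or 1.69-fold lower, with 4.6% of the nearest genes at least as different. Ch25h, the interferon-induced enzyme that makes the oxysterol 25-hydroxycholesterol, differed by 0.51 from a wildtype signal of 4.17 under the floor, Cyp27a1, which makes another oxysterol, by 0.23, and Cyp46a1, a cholesterol hydroxylase best known from brain, by -0.14. The other efflux and liver X receptor target genes had a median of 0.06 over 13, with 6 below 0 and 7 above and no gene at 1.5-fold among the 8 that passed. Scd1, a fatty acid desaturase, differed by -0.33, the secreted phosphodiesterase gene Smpdl3a by -0.16, the lysophospholipid acyltransferase gene Lpcat3 by 0.13 and the acetyl-CoA carboxylase gene Acaca by 0.37, from a wildtype signal of 4.08 under the floor. These targets thus showed no common direction, as Abca1 and Abcg1 did not.

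Other nuclear receptors and coregulators had a median of -0.07 over 14 genes, with the transcription factor gene Cebpb at -0.68 and the retinoid X receptor gene Rxrb, a partner of both receptor families, at -0.52. Ppard, which encodes PPAR delta, differed by 0.57 and the coactivator gene Ncoa1 by 0.17. Genes described as PPAR targets had a median of -0.15 over 11, with 7 below 0 and 3 above. The transglutaminase gene Tgm2 differed by -0.58, Acadm, of medium-chain fatty acid oxidation, by -0.41, Cpt1a, which admits fatty acids to mitochondria, by 0.26, and Acadvl, of very-long-chain oxidation, by 0.42. The list of SREBP2 and sterol genes, which also holds Scap, was divided, 7 below 0 and 8 above of 16, with a median of 0.06. Scap, the escort protein of the SREBPs, differed by 0.67, Srebf2 itself by 0.37, and the sterol synthesis genes Nsdhl by -0.37 and Sc5d by -0.43.

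**Figure D4:**
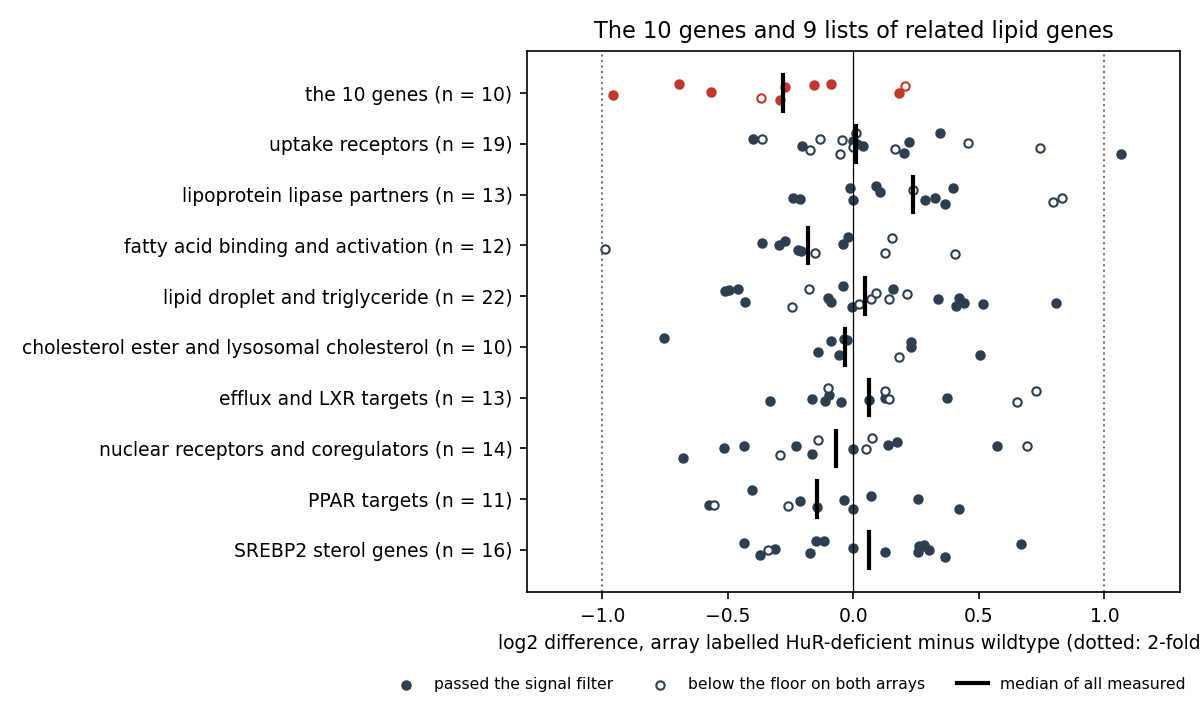
Log2 difference, array labelled HuR-deficient minus wildtype array, of the 10 genes (red) and of each measured gene in 9 lists of related lipid genes (dark points: passed the signal filter; open points: below the floor on both arrays; black bars: list medians; dotted lines: 2-fold). The 10 genes have a median of -0.28, the list medians lie between -0.18 and 0.24, and Scarf1 is the point past a dotted line. Points are spread vertically at random for legibility.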

How the data were processed

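Total RNA of 2 cultures was extracted with Trizol and biotinylated, per the labels' protocols. The authors deposited 1 column of log2 signals per array, and the submitters' processing notes name RMA. Its version, the annotation and the build are not stated in the sources used here, and log2 was inferred from the range, 0.43 to 13.77. RMA brings the arrays' distributions close together, so a change in total mRNA is hidden, and it compresses weak signals. The median signal was 4.10 on the array labelled HuR-deficient and 4.08 on the wildtype array. Of 41345 probe sets, 23521 had 1 gene symbol. A gene with more than 1 (1082 genes) was read from its probe set of highest mean. The signal filter left 11905 genes. Differences were compared with 2-fold and 1.5-fold, and with the robust SD (scaled median absolute deviation) of the nearest 500 genes, and no p-value was computed. The number of arrays limits the precision.

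The 10 genes and the lists were chosen with earlier results of these arrays known. The text names all 10, and from each list the 2 highest and 2 lowest that passed the filter and any at 2-fold. Genes outside this rule are marked, or serve as cell type markers. Of the 21 list symbols not matched, 5 sat on probe sets with several symbols, and 16 were not analysed here. The 2-fold threshold, the robust SD of the nearest genes and the quantile normalisation were tested on simulated data. The differences planted there were well past 2-fold, so their recovery says nothing about smaller ones. The other steps were not tested in this way. Alternatives were centring, another quantile normalisation, a loess trend (span 0.3), averaged probe sets and other filters. The software was matplotlib 3.10.9, statsmodels 0.14.6, pandas 2.3.3, numpy 2.4.6 and Python 3.11.15.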

Additional observations from a re-analysis of the deposited data

How the results depend on the processing

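Under averaging of probe sets, centring, a repeated quantile normalisation and a loess correction, each of the 10 differences kept its sign, with Fabp4 between -1.0004 and -0.96, Plin2 between -0.69 and -0.67, Abca1 between -0.61 and -0.57 and Lpl between -0.36 and -0.26. Centring could change nothing, because the median difference of all named genes was already 0. Averaging could change only Lpl, the one gene of the 10 with more than 1 probe set. The loess trend put 1 gene, Fabp4, just past 2-fold, where the main setting had 0. With signals raised to the floor, an alternative chosen after seeing the data, Fabp4 was -0.19, Abca1 -0.18, and both Pparg and Apoe were 0. The median of the 10 genes was then -0.17, and 1 gene, Plin2, was at least 1.5-fold lower in place of 2. That count was also 1 when both signals had to reach the floor and when the higher one had to reach the 60th percentile. With both signals at the floor, the count of related genes at 2-fold higher was 0 in place of 1, since Scarf1 left. At 1.5-fold, 2 related genes were lower (Nceh1 and Cebpb) and 3 higher (Abhd5, Scap and Scarf1). No array could be left out. No paired analysis was possible because each group has 1 array. Low signal limits Fabp4, Abca1, Apoe and Pparg. Reaching the floor does not by itself show a signal above background, since 5 of 9 markers of other cell types reached it. On the wildtype array Abcg1 (5.05) and Nr1h3 (5.10) read lower than the epithelial marker Krt8 (5.39). On the array labelled HuR-deficient they read higher, with Abcg1 at 5.23, Nr1h3 at 4.94 and Krt8 at 4.92. Signals of different genes are not comparable, so this order decides nothing, but low signal may limit Abcg1 and Nr1h3 too.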

Other observations

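Some related lipid genes differed by at least 0.65 but had signals below the floor of 4.38 on both arrays, so they entered the list medians and the counts of signs but no count at 2-fold or 1.5-fold. They were chosen after their values were seen. Fabp1, the liver fatty acid binding protein gene, read 2.89 on the array labelled HuR-deficient and 3.88 on the wildtype array, a difference of -0.99, close to that of Fabp4. The others all lay on the opposite side. Lipg, which encodes endothelial lipase, differed by 0.83, Apoa5, an apolipoprotein gene of liver, by 0.79, the scavenger receptor gene Scara5 by 0.74, Mertk, a receptor for apoptotic cells, by 0.73, the nuclear receptor gene Rora by 0.69 and the transporter gene Abca7 by 0.65. The difference of Fabp1 was reached by 3% of the 500 genes closest to it in signal, and that of Lipg likewise by 3%. Several of these are genes of liver or other tissues, and their signals were not shown to lie above background.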
